A study of Rattus norvegicus with 9 samples.

Results

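Neural stem cells (NSCs) that had received exosomes of either kind were compared with NSCs kept in differentiation medium alone. The members of this comparison were the genes whose counts passed a low-count filter over all 9 libraries, which left 15458 of the 23953 genes in the deposited table. The Con group (n = 3 libraries) had differentiation medium only. The Exo group (n = 3) had the same medium with exosomes from bone marrow mesenchymal stem cells (BMSC-Exos). In the third group, pLV-Exo-Wnt5a (n = 3), the BMSC-Exos came from cells that overexpressed rat Wnt5a from a lentiviral vector. According to the study's methods, the donor cells of the Exo group carried the empty lentiviral vector, the BMSCs came from Sprague-Dawley rats, and the NSCs came from the spinal cords of neonatal rats. All 3 groups shared the culture medium, which contained FBS, and all 9 libraries carried one batch label. Both exosome groups therefore shared the vesicle preparation and the lentiviral backbone, and the design had no arm with vesicle buffer alone, so an effect of the buffer and one of the vesicles cannot be told apart. The contrast was the mean of the 2 exosome groups, weighted equally, minus Con, and it asked which changes ran the same way in both exosome groups, that is, regardless of Wnt5a overexpression. The labels do not say whether libraries of a group came from separate cultures, so the p-values measure the spread between these libraries, which may be technical.

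Exosomes are small membrane vesicles that carry proteins, lipids and RNA from the releasing cell to cells that take them up. NSCs hold themselves in an undifferentiated progenitor state through Notch signaling, with effectors such as Hes5, and through matrix and growth factor cues. As they leave that state, they form neurons, astrocytes or oligodendrocytes, and the genes of each lineage rise while progenitor genes decline.

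Total counts ranged from 32765138 to 40427647 per library, so that 3 counts corresponded to between 0.0742 and 0.0916 CPM of the library total. Levels below are CPM, that is, counts relative to a library size scaled with TMM factors. One Con library stood apart. The mean distance of Con replicate 1 to the other libraries was 76.6 on the log2 CPM scale, whereas the other 8 libraries lay between 59.7 and 66.0. Its levels also followed the genomic span of the genes in the rat annotation. In Con replicate 1, the median level relative to each gene's own mean over the libraries fell from 0.16 (log2) in the quintile of genes with the shortest spans to -0.24 in the quintile with the longest, while in the other 8 libraries these medians lay between -0.04 and 0.10. The fold changes of the comparison carried the same order, with median log2 fold changes (log2FC) of -0.07, -0.03, 0.02, 0.06 and 0.09 from the shortest to the longest quintile. The labelled tissue was also compared with markers of position along the body axis. Of 30 Hox genes, which mark hindbrain and spinal cord, 10 were listed in the table, none passed the filter and no library held more than 4 counts of any of them. All 19 forebrain transcription factors of the list passed, Lhx2 among them with 5830 to 7422 counts, so these markers went against the spinal cord label in all 3 groups alike. Neuron (33 of 33), astrocyte (26 of 26) and NSC (25 of 25) marker genes were detected throughout. The marker list of mesenchymal cells, the source of the vesicles, had 23 of 28 genes tested, with a summed level of 571 to 604 CPM in the Con libraries and of 554 to 662 CPM in the exosome libraries.

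Few genes passed correction for multiple testing. With an unadjusted p below 0.05 and a log2FC beyond 0.58 in size, 290 genes (1.88% of those tested) were higher and 103 (0.666%) were lower in the same direction in both exosome groups, and 6 genes (0.0388%) met these limits with opposite signs. These genes were chosen on the mean of both exosome groups minus the same Con libraries, so opposite signs could hardly arise. The agreement of signs is therefore no evidence of a shared response. With the same p and no limit on size, 1329 genes (8.6%) were higher and 1261 (8.16%) lower with shared direction. In 509 genes (3.29%) all 6 exosome libraries lay above all 3 Con libraries, and in 763 (4.94%) all 6 lay below. By the quasi-likelihood test of edgeR with Benjamini-Hochberg adjustment (Q), 1 gene passed Q under 0.05, in the lower direction (0.00647% of genes tested). No gene passed the study's threshold of Q under 0.05 with a change above 2-fold or below 0.5-fold (0%). DESeq2 on the same counts called 323 genes at Q under 0.05 and 4 of them past the fold limits. The number of calls depended on single Con libraries. Without Con replicate 3, 400 genes passed Q under 0.05 and 966 passed the unadjusted rule, and without Con replicate 1 these numbers were 9 and 246. The non-overlapping genes numbered 774 above and 1018 below without Con replicate 1, 861 above and 984 below without Con replicate 2, and 1610 above and 1796 below without Con replicate 3. The shares of all genes at an unadjusted p under 0.05 moved as well, from 8.68% higher and 8.24% lower to 4.93% and 4.74% without Con replicate 1 and to 13.9% and 12.4% without Con replicate 3. With any other library left out they were 6.28% to 8.5% higher and 5.93% to 7.95% lower, and the counts of gene lists given below for such settings stand against these shares.

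The 13 lower genes described here, from the 15 with the smallest p, did not pass Q and had varied roles. Dhrs3, a short-chain dehydrogenase that reduces retinaldehyde, was at 20.4, 18.3 and 19.6 CPM in Con, 12.9, 13.7 and 15.5 CPM in Exo, and 10.8, 13.7 and 9.98 CPM in pLV-Exo-Wnt5a. All 6 exosome libraries lay below all Con libraries, with a pooled log2FC of -0.62 (Q = 0.13, edgeR), and the pLV-Exo-Wnt5a group had the lower point estimate (log2FC -0.47 with BMSC-Exos and -0.76 with Wnt5a-overexpressing BMSC-Exos). Pdgfrb, the beta receptor for platelet-derived growth factor found on mural and mesenchymal cells, was at 20.1, 14.1 and 17.4 CPM in Con, 9.87, 10.7 and 10.5 CPM in Exo, and 10.1, 11.7 and 10.7 CPM in pLV-Exo-Wnt5a. The exosome groups lay side by side under Con, with a pooled log2FC of -0.70 (95% interval -0.95 to -0.44, Q = 0.097, edgeR). Islr, a cell surface protein of stromal cells, was at 35.6, 31.8 and 35.7 CPM in Con, 11.9, 17.1 and 16.7 CPM in Exo, and 24.1, 30.9 and 22.7 CPM in pLV-Exo-Wnt5a (pooled log2FC -0.79, Q = 0.097, edgeR). The Exo libraries were the lowest. Of the 23 mesenchymal markers tested, 2 were lower and none was higher at an unadjusted p under 0.05, against 8.24% lower and 8.68% higher of all genes, with a list median log2FC of 0.07. Only Pdgfrb of these was lower in both exosome groups, since Eng, at 0.0495 to 0.360 CPM, had a log2FC of -2.31 in Exo and 0.05 in pLV-Exo-Wnt5a and kept an unadjusted p under 0.05 in 4 of 15 alternative settings. Without Con replicate 1, 4 of the markers were lower and 2 higher. The count of lower ones was 1 when Con replicate 2, any Exo replicate, pLV-Exo-Wnt5a replicate 1 or pLV-Exo-Wnt5a replicate 2 was left out, and 1 was higher without Con replicate 3. In bulk RNA, fewer cells of a type and less RNA per cell cannot be told apart. Mdk, which encodes the heparin-binding growth factor midkine, was at 23.1, 18.8 and 18.2 CPM in Con, 13.5, 12.2 and 11.3 CPM in Exo, and 12.7, 13.3 and 16.9 CPM in pLV-Exo-Wnt5a (pooled log2FC -0.59, Q = 0.16, edgeR). The metabolic and transport genes of this set were Gstt1, a glutathione transferase (log2FC -0.74), Slc14a2, a urea transporter (-0.69), Hvcn1, the voltage-gated proton channel (-0.65), Slc7a10, a transporter of small neutral amino acids (-0.60), Angptl4, an inhibitor of lipoprotein lipase (-0.59), and Rhcg, an ammonia transporter (-1.16). Arsi, a sulfatase (log2FC -1.23), Perm1, a regulator of energy metabolism (-0.64), and Eya2, a transcriptional coactivator (-0.62), completed these lower genes. In these 13 genes Q ranged from 0.0968 to 0.172 (edgeR), and all 6 exosome libraries lay below all Con libraries by the rule of choice. All 13 kept an unadjusted p under 0.05 in each of the 16 alternative settings. These settings reuse the libraries on which the genes were chosen, so this adds no independent evidence. Other lower genes named for the size of their fold change were Heyl, a Notch target (log2FC -1.26, between 1.75 and 3.17 CPM in Con and 0.301 and 1.11 CPM in the exosome libraries), Scx, a transcription factor of tendon progenitors (log2FC -0.94), Slc39a8, a zinc transporter (-0.91), and Nfatc4, a calcium-regulated transcription factor (-0.88).

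**Figure D1:**
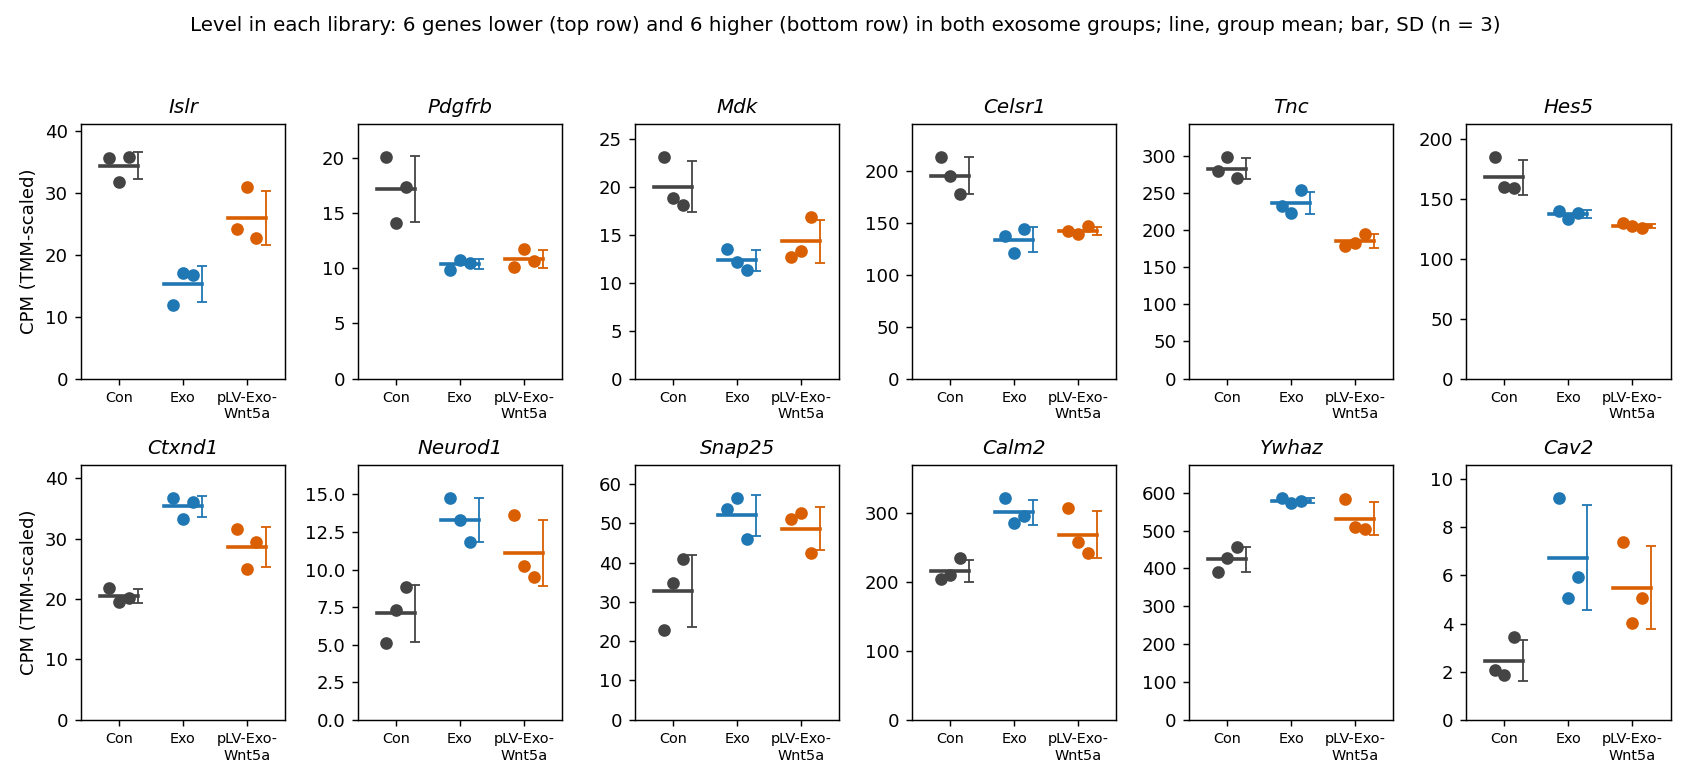
TMM-scaled CPM (linear axes from 0) of 12 genes in each of the 9 libraries, with points for libraries, lines for group means and bars for the SD (n = 3). The 6 exosome libraries lie below the 3 Con libraries in the top row (Pdgfrb at 9.87 to 11.7 against 14.1 to 20.1 CPM) and above them in the bottom row (Cav2 at 4.02 to 9.20 against 1.88 to 3.44 CPM).

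The 15 higher genes with the smallest p did not pass Q and had varied roles. Ctxnd1, which encodes a small neuronal membrane protein of the cortexin kind, was at 21.9, 19.5 and 20.2 CPM in Con, 36.7, 33.3 and 36.1 CPM in Exo, and 31.6, 25.0 and 29.4 CPM in pLV-Exo-Wnt5a. It had the smallest p of the genes that were higher (log2FC 0.63, 95% interval 0.43 to 0.84, Q = 0.073, edgeR). Neurod1, a transcription factor of neuronal differentiation, was at 5.11, 7.29 and 8.86 CPM in Con, 14.7, 13.3 and 11.8 CPM in Exo, and 13.6, 10.2 and 9.47 CPM in pLV-Exo-Wnt5a. Its groups did not overlap, although Con replicate 3 and pLV-Exo-Wnt5a replicate 3 were close (log2FC 0.78, Q = 0.16, edgeR). Scg2, a granin of neuronal secretory granules, was at 13.1 to 20.5 CPM in Con and 22.8 to 30.0 CPM in the exosome libraries (log2FC 0.64, Q = 0.16, edgeR). Cav2, a caveolin of plasma membrane invaginations, had the largest change of the 15 higher genes. It was at 2.08, 1.88 and 3.44 CPM in Con, 9.20, 5.08 and 5.94 CPM in Exo, and 7.40, 4.02 and 5.06 CPM in pLV-Exo-Wnt5a (log2FC 1.31, 95% interval 0.71 to 1.92, Q = 0.16, edgeR). Aox1, an aldehyde oxidase, was at 0.642 to 0.883 CPM in Con and 1.21 to 2.20 CPM in the exosome libraries (log2FC 1.18, Q = 0.16, edgeR). Ugcg, which makes glucosylceramide, the base of the glycolipids of nerve cell membranes, was at 14.2, 17.9 and 19.5 CPM in Con and between 24.8 and 28.1 CPM in the exosome libraries (log2FC 0.60, Q = 0.097, edgeR). Man1a, a Golgi mannosidase that trims N-glycans, had a log2FC of 0.75. The secreted proteins of this set were Ccn3, a matricellular protein (log2FC 0.82), and Fst, the activin antagonist follistatin (0.63). Ptges3, a cochaperone of Hsp90 (0.58), Pgm2l1, a sugar phosphate enzyme of brain (0.59), Clvs2, a lipid-binding protein of endosomes (0.63), Pcdhb22, a protocadherin (0.71), Lix1 (0.59) and AI593442 (0.62) made up the remainder. Q ranged from 0.073 to 0.163 (edgeR) over these 15 genes, and all 15 kept an unadjusted p under 0.05 in each of the 16 alternative settings. Here too the settings reuse the libraries on which the genes were chosen.

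**Figure D2:**
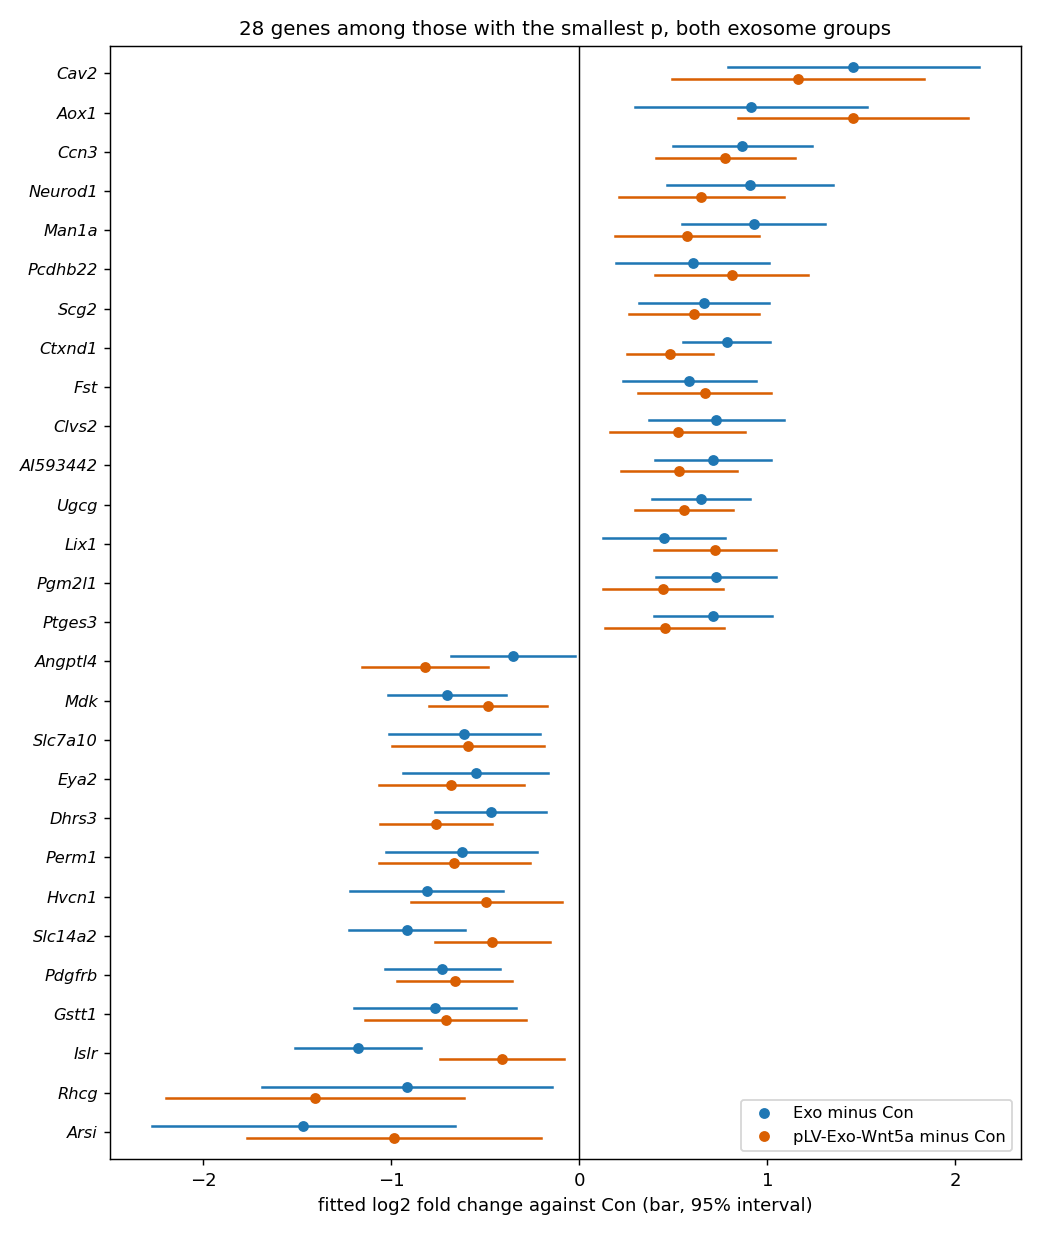
Fitted log2FC against Con (x axis) of 28 genes among those with the smallest p, 13 lower and 15 higher, with the Exo group in blue, the pLV-Exo-Wnt5a group in orange and bars for the 95% interval. Both groups share the 3 Con libraries, so their estimates are not independent, and the groups stand well apart for Islr (-1.17 and -0.41).

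Among genes of the progenitor state and of Notch and Wnt reception, those at an unadjusted p under 0.05 were mostly lower, while the lists as a whole lay close to 0. Tnc, the matrix protein tenascin-C of radial glia, was at 279, 298 and 270 CPM in Con, 233, 223 and 253 CPM in Exo, and 178, 182 and 195 CPM in pLV-Exo-Wnt5a (log2FC -0.43, Q = 0.063, edgeR). The 3 groups did not overlap, and the pLV-Exo-Wnt5a libraries were the lowest. Hes5, the Notch effector that keeps progenitors undifferentiated, was at 185, 160 and 159 CPM in Con, 140, 133 and 138 CPM in Exo, and 130, 127 and 126 CPM in pLV-Exo-Wnt5a (log2FC -0.34, Q = 0.097, edgeR). Of 25 NSC genes tested, 5 were lower and 2 higher at an unadjusted p under 0.05, against 8.24% lower and 8.68% higher of all genes, and the list median log2FC was -0.06 (-0.12 to -0.01 with a library left out) against 0.01 for all genes. The lower ones were Tnc, Hes5, Nr2e1, Notch2 and Msi1, and without Con replicate 3 the count was 8. Msi1 had a log2FC of -0.17, and of -0.08 with an unadjusted p of 0.134 without Con replicate 1. The higher ones were Hopx, a homeodomain protein of outer radial glia and quiescent stem cells (18.9 ± 0.871 CPM in Con, 22.4 ± 1.83 CPM in Exo and 32.4 ± 2.80 CPM in pLV-Exo-Wnt5a, SD, n = 3 each), and Id2, an inhibitor of basic helix-loop-helix factors (log2FC 0.20).

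In the Notch and BMP list, 7 of 34 genes were lower and 2 were higher at an unadjusted p under 0.05 (20.6% and 5.88%, against 8.24% and 8.68% of all genes, and 4 higher without Con replicate 3). Over the whole list 17 genes had a positive and 17 a negative fitted log2FC, with a median of 0.01 that turned negative with no filter, by DESeq2 and when Con replicate 1, Con replicate 2, Exo replicate 1, pLV-Exo-Wnt5a replicate 1 or pLV-Exo-Wnt5a replicate 3 was left out. Beside Hes5, Heyl and Notch2, the lower genes were the ligand Dll3 (142, 109 and 112 CPM in Con, 82.1 to 105 CPM in the exosome libraries, log2FC -0.39), the feedback regulator Nrarp (-0.30), the receptor Notch3 (-0.30, and -0.19 without Con replicate 1) and Hes6 (-0.27, and -0.14 without it). The higher genes were the BMP effector Smad1, at 48.8, 51.9 and 51.6 CPM in Con and 59.4 to 62.9 CPM in the exosome libraries (log2FC 0.26, Q = 0.16, edgeR), and Id2, a BMP target. Among 29 Wnt ligands and receptors, 4 were lower (13.8%) and none was higher at an unadjusted p under 0.05, and 15 had a negative and 14 a positive fitted log2FC (7 and 1 at that p without Con replicate 3, and 6 lower when Con replicate 1, pLV-Exo-Wnt5a replicate 2 or pLV-Exo-Wnt5a replicate 3 was left out). Celsr1, a cadherin of planar cell polarity, was at 213, 195 and 178 CPM in Con, 137, 121 and 144 CPM in Exo, and 142, 139 and 147 CPM in pLV-Exo-Wnt5a. Its exosome groups were 0.09 (log2) apart with a 95% interval of -0.09 to 0.27, and the pooled log2FC was -0.50 (Q = 0.063, edgeR). The receptors Fzd2 (log2FC -0.39) and Fzd8 (-0.46) and the ligand Wnt7b (-0.22, and -0.12 with an unadjusted p of 0.0891 without Con replicate 1) were the others. Of 16 feedback targets of canonical Wnt signaling, none was higher or lower at an unadjusted p under 0.05, and the median log2FC was 0.01 (-0.02 to 0.04 with a library left out). With 1 library left out, 1 was higher and 1 lower for Con replicate 2 or Con replicate 3, and 1 passed for Exo replicate 2, pLV-Exo-Wnt5a replicate 2 or pLV-Exo-Wnt5a replicate 3. Wnt5a itself was at 20.8, 26.1 and 29.8 CPM in Con, 33.6, 25.6 and 27.8 CPM in Exo, and 30.8, 24.3 and 31.7 CPM in pLV-Exo-Wnt5a, with overlapping groups (log2FC 0.18, Q = 0.49, edgeR). Its log2FC was 0.05 without Con replicate 1 and 0.29 without Con replicate 3. Single lower genes of further lists were Tead2, a partner of the YAP coactivator (53.4 to 61.6 CPM in Con, 35.2 to 49.9 CPM in the exosome libraries, log2FC -0.51, Q = 0.093, edgeR), Bcan, the matrix proteoglycan brevican (-0.35), Mfge8, a phosphatidylserine-binding secreted protein (-0.38), and the cell cycle genes Cdkn1c (-0.44, and -0.29 without Con replicate 1) and Cdc25b (-0.40). Members of such lists went both ways. At an unadjusted p under 0.05, 14 of 150 cell cycle genes (KEGG) were higher and 11 lower. Of 41 matrix genes 2 were higher and 5 lower, and of 33 vesicle genes 4 were higher and 4 lower. Of 27 YAP and cytoskeleton genes none was higher and 3 were lower. The shares of all genes were 8.68% higher and 8.24% lower.

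Neuronal genes at an unadjusted p under 0.05 were higher, and none was lower, in the same comparison. Snap25, a core protein of synaptic vesicle fusion, was at 22.7, 34.8 and 40.9 CPM in Con, 53.6, 56.3 and 46.1 CPM in Exo, and 51.0, 52.5 and 42.4 CPM in pLV-Exo-Wnt5a (log2FC 0.62, Q = 0.16, edgeR, and a log2FC of 0.41 without Con replicate 1). Nefl, the light neurofilament, was at 35.9, 45.5 and 46.9 CPM in Con and 51.5 to 62.3 CPM in the exosome libraries (log2FC 0.44, Q = 0.16, edgeR). Gap43, a growth cone protein, was at 330, 386 and 389 CPM in Con, 393, 511 and 461 CPM in Exo, and 446, 505 and 412 CPM in pLV-Exo-Wnt5a (log2FC 0.30, Q = 0.19, edgeR). In Snap25, Nefl and Gap43 alike Con replicate 1 was the lowest library of all 9. Of 33 pan-neuronal genes, 11 (33.3%, against 8.68% of all genes) were higher at an unadjusted p under 0.05 and none was lower, 6 lay above all Con libraries (3.29% of all genes did), and the median log2FC was 0.16. The others above all Con libraries were Gad1, which makes GABA (log2FC 0.32), Stmn2, a microtubule regulator of growing axons (0.28), and Ncam1, an adhesion molecule (0.16, with an unadjusted p of 0.0535 without Con replicate 1 and of 0.0549 without Exo replicate 2). Of 40 synaptic genes, 9 (22.5%) were higher and none was lower, with a median log2FC of 0.13, but only Snap25 lay above all Con libraries. The synaptic list also differed between the exosome groups, since 8 of its 40 genes were higher in Exo than in pLV-Exo-Wnt5a at an unadjusted p under 0.05 and none was lower, against 3.99% and 3.42% of all genes. Without Con replicate 1 the number of higher genes was 6 of 33 in the neuronal list (median log2FC 0.11) and 4 of 40 in the synaptic list (median log2FC 0.09), and without Con replicate 3 it was 15 and 16, with 4.93% and 13.9% of all genes higher in these settings. Beside this, the neuronal list had a median relative level of -0.21 (log2) in Con replicate 1 and of -0.06 and -0.08 in the other Con libraries, whereas the exosome libraries ranged from -0.13 to 0.18. Exo replicate 1 (-0.10) and pLV-Exo-Wnt5a replicate 3 (-0.13) thus lay among the Con values for this list. The part of gene span in these values was not tested.

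Of 19 transcription factors of neurogenesis tested, 5 were higher (26.3%) and 2 were lower (10.5%) at an unadjusted p under 0.05, against 8.68% and 8.24% of all genes, with 1 lower when Exo replicate 3 was left out. The higher ones were Neurod1, Tbr1, Neurod6, Sox11 and Bcl11b, which act in excitatory or postmitotic neurons. Without Con replicate 1 the log2FC of Neurod6 was 0.25 in place of 0.46, that of Sox11 0.315 in place of 0.52, and that of Bcl11b 0.15 in place of 0.37, with an unadjusted p of 0.0789. Bcl11b also lost its call when pLV-Exo-Wnt5a replicate 2 was left out. Tbr1 was at 60.2, 61.4 and 66.3 CPM in Con, 94.0, 77.5 and 88.3 CPM in Exo, and 92.3, 80.4 and 66.4 CPM in pLV-Exo-Wnt5a (log2FC 0.41, Q = 0.16, edgeR), the last library being level with Con replicate 3. The lower ones were Dlx1 and Dlx2, homeobox factors of inhibitory neuron precursors, and Dlx1 lost its call when Con replicate 3, Exo replicate 3 or pLV-Exo-Wnt5a replicate 3 was left out. Dlx2 was at 49.4, 41.0 and 44.5 CPM in Con and 30.4 to 38.4 CPM in the exosome libraries (log2FC -0.34, Q = 0.17, edgeR).

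Several genes of signal adaptors were also higher. Ywhaz, a 14-3-3 protein that binds phosphorylated partners, was at 390, 427 and 455 CPM in Con, 585, 571 and 578 CPM in Exo, and 582, 509 and 503 CPM in pLV-Exo-Wnt5a (log2FC 0.39, 95% interval 0.24 to 0.53, Q = 0.097, edgeR). Of 7 genes of the 14-3-3 family, 5 were higher at an unadjusted p under 0.05 and none was lower (2 without Exo replicate 2, and 3 without Con replicate 2, Con replicate 3, pLV-Exo-Wnt5a replicate 1 or pLV-Exo-Wnt5a replicate 2), and 4 (Ywhaz, Ywhab, Ywhag and Ywhae) lay above all Con libraries. Without Con replicate 1 the log2FC of Ywhab was 0.11 in place of 0.22 and that of Ywhae 0.08 in place of 0.16, with an unadjusted p of 0.135 for Ywhae. Ywhae also lost its call when Exo replicate 1, Exo replicate 2, pLV-Exo-Wnt5a replicate 1 or pLV-Exo-Wnt5a replicate 3 was left out, and Ywhag lost its call when Con replicate 2, Con replicate 3, Exo replicate 2 or pLV-Exo-Wnt5a replicate 2 was. Of all genes 8.68% were higher at that p under 0.05 and 3.29% lay above all Con libraries. Calm2, a calmodulin gene, was at 204, 211 and 235 CPM in Con, 322, 286 and 296 CPM in Exo, and 308, 258 and 242 CPM in pLV-Exo-Wnt5a (log2FC 0.40, Q = 0.16, edgeR). The calmodulin genes encode one protein from several near-identical genes, so reads may have been split among them. Gnb1, a G protein beta subunit, was at 679 to 735 CPM in Con and 815 to 889 CPM in the exosome libraries (log2FC 0.26, Q = 0.16, edgeR). Over calmodulin, G protein and protein kinase A genes, 12 of 29 were higher and 1 was lower at an unadjusted p under 0.05, with a median log2FC of 0.21 that was 0.10 without Con replicate 1 (10 higher, none lower). The 14-3-3 and calmodulin lists were written after the values were seen.

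Cytosolic ribosomal protein genes were lower in nearly all members, by small amounts. All 78 tested had a negative fitted log2FC against Con, against 47.5% of all genes, in the Exo group and in the pLV-Exo-Wnt5a group alike. Both groups were set against the same Con libraries, so the agreement between them is not independent. At an unadjusted p under 0.05, 67 were lower and none was higher, against 8.24% lower of all genes, and in 65 of 78 (83.3%) all 6 exosome libraries lay below all Con libraries, against 4.94% of all genes. The changes were small, from -0.27 to -0.05 with a median of -0.20 (-0.18 in Exo and -0.22 in pLV-Exo-Wnt5a), and none passed Q (lowest Q = 0.16, edgeR). None of the 78 differed between the exosome groups at an unadjusted p under 0.05. Summed over the list, the level was 44727, 38401 and 37166 CPM in Con (40098 ± 4060, SD, n = 3), 35099, 35142 and 35755 CPM in Exo (35332 ± 367, SD, n = 3), and 34439, 33914 and 34961 CPM in pLV-Exo-Wnt5a (34438 ± 523, SD, n = 3). Con replicate 1 was the highest library, but the lowest Con library was still above the highest exosome library. Without Con replicate 1, the median log2FC was -0.12, 45 genes were lower and none was higher at an unadjusted p under 0.05, and 66 of 78 lay below the remaining Con libraries. In that setting 4.74% of all genes were lower at that p. Of the 15458 genes, 1018 lay below, against 763 with all Con libraries, since fewer libraries had to be separated. Ribosomal protein genes have short spans and many processed pseudogenes, so counts of single members are uncertain. The part of gene span and of Con replicate 1 in the size of the change was not tested.

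**Figure D3:**
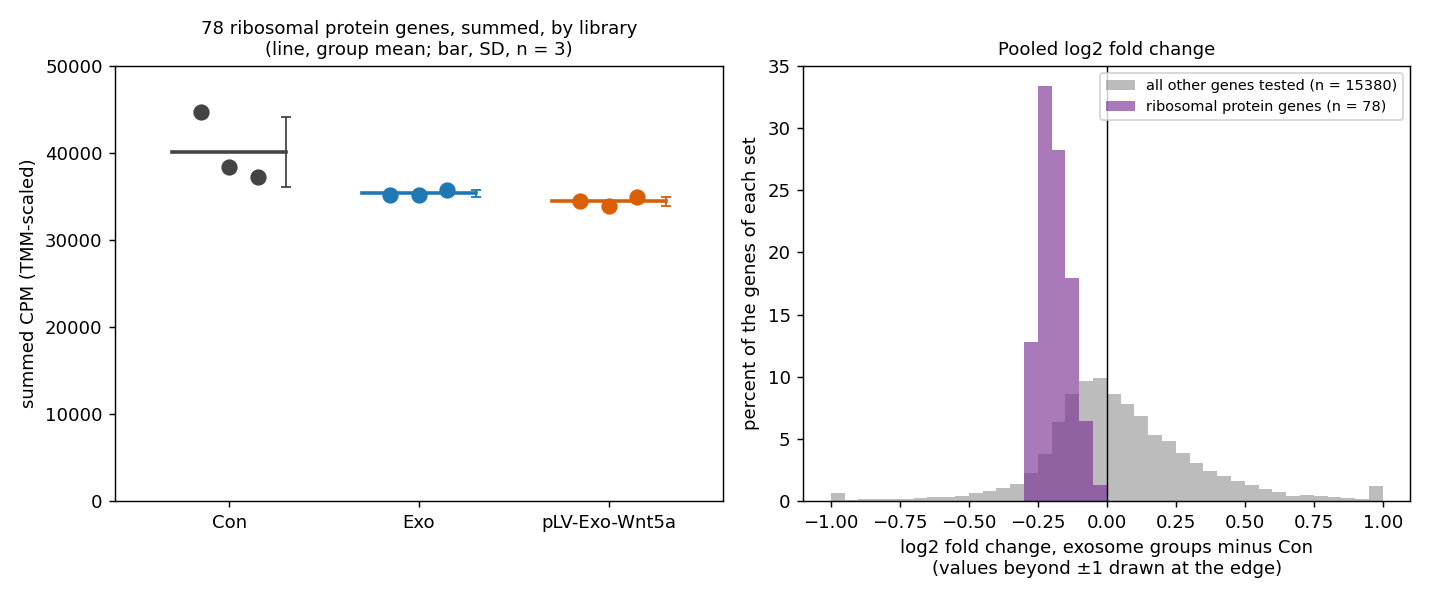
Left, summed TMM-scaled CPM of 78 ribosomal protein genes in each library (points), with group means (lines) and SD (bars, n = 3); all exosome libraries lie at or below 35755 CPM and all Con libraries at or above 37166 CPM. Right, percent of genes by pooled log2FC, with all 78 ribosomal protein genes (purple) left of 0 and the 15380 other genes (grey) spread on both sides.

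The start of ribosomal protein mRNAs carries a terminal oligopyrimidine motif, a C followed by a run of C and T, through which growth signaling adjusts their translation. The annotated rat starts of 61 of the 78 genes could be matched by symbol in RefSeq (build GRCr8). A C followed by at least 5 bases that were each C or T, on the gene's strand and beginning within 10 bases of an annotated start, was present in 67.2% of these 61 genes and in 19.5% of all 27457 genes with a promoter entry. The windows below are those of the 6 ribosomal protein genes with the smallest p among genes with such a run, from 12 bases before the annotated start, with the run in capitals. They show the run where it was present and do not stand for the list, since 20 of the 61 matched genes lacked it and 17 were not matched. In Rpl13a the run began 9 bases before the annotated start and ended before it. In Rps9 and Rps28 it began at bases 2 and 5 from the start. Of the 6 matched genes with the smallest p regardless of the run, 1 had it.
Rpl13a (chr1:104748896-104748925, - strand): cttCCTTTCCTaggcggctgccgaagatgg
Rps9 (chr1:74430420-74430449, - strand): ggcggccacgtttCTCTTTgtcacgggcct
Rps28 (chr7:15311316-15311345, - strand): tcccctgctcacgtgaCTCCTCTCCgctag
Rpl37a (chr9:81748079-81748108, + strand): tgcccgttgcgtCTCTTCCTCTTCgggctt
Rplp1 (chr8:71290855-71290884, - strand): ggcgcatgtgatCCTTTCCTCagctgccgc
Rpl35a (chr11:81235004-81235033, - strand): ggtcttgCCTTCCTCTTTCCgccatcttgg
Among genes outside the list, those with the run had a median log2FC of 0.01 (n = 1962) and those without it also 0.01 (n = 8778), and 6.01% and 4.73% of them, respectively, lay below all Con libraries.

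In several other housekeeping groups more genes were lower than higher at an unadjusted p under 0.05, against 8.24% lower and 8.68% higher of all genes. By genomic span, 10.5% of genes in the shortest quintile and 2.32% in the longest lay below all Con libraries. The part of gene span in these groups was not tested. Of 60 nuclear genes of the respiratory chain and ATP synthase, 26 were lower and 1 was higher at an unadjusted p under 0.05, and 13 lay below all Con libraries, against 4.94% of all genes (median log2FC -0.12). Cox4i1, a subunit of cytochrome c oxidase, was at 740, 639 and 614 CPM in Con, 572, 584 and 598 CPM in Exo, and 526, 537 and 526 CPM in pLV-Exo-Wnt5a (log2FC -0.25, Q = 0.16, edgeR). Without Con replicate 1 this list had 7 lower and 2 higher genes and a median of -0.07, and without Exo replicate 1 it had 15 lower genes. The 13 genes encoded by the mitochondrial genome had no member at an unadjusted p under 0.05 and a median log2FC of 0.13, which was -0.02 without pLV-Exo-Wnt5a replicate 1, 0.08 without Con replicate 1 and 0.28 without Con replicate 3. Without Con replicate 3, 3 of them were higher, 1 was higher when Exo replicate 2 or pLV-Exo-Wnt5a replicate 2 was left out, and 1 was lower without Con replicate 1. Of 28 translation factors and related genes, a list written after the values were seen, 11 were lower and 2 were higher (median log2FC -0.13), with Eef2, the ribosome translocation factor, at 6471, 5222 and 4998 CPM in Con and 4479 to 4987 CPM in the exosome libraries (log2FC -0.24, and -0.12 without Con replicate 1). That list had 6 lower genes when Con replicate 1 or pLV-Exo-Wnt5a replicate 1 was left out, and 7 when Exo replicate 1 or Exo replicate 2 was, and none was higher without Con replicate 1 and 1 without Exo replicate 2. Mitochondrial ribosomal proteins, also listed after the values were seen, had 14 lower and 3 higher of 78. That number of lower genes was 3 without Con replicate 1, 27 when Con replicate 3 was left out, and 6 to 8 when Con replicate 2, Exo replicate 1, Exo replicate 2 or pLV-Exo-Wnt5a replicate 1 was left out. The number of higher ones was 1 when Con replicate 1, Con replicate 3 or Exo replicate 1 was left out. Of 37 lysosome and autophagy genes, 11 were lower and 3 higher (median log2FC -0.12, and -0.05 with 5 lower genes and 1 higher without Con replicate 1, and 19 lower genes without Con replicate 3), among them Grn, the lysosomal protein progranulin (172 to 202 CPM in Con, 138 to 162 CPM in the exosome libraries, log2FC -0.29), and the cholesterol exporters Npc1 (-0.20) and Npc2 (-0.26, and -0.17 without Con replicate 1).

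Other groups held a few members past the unadjusted threshold and many that were not, and 8.68% of all genes were higher and 8.24% lower at that threshold. In the heat shock list 4 of 16 genes were higher at an unadjusted p under 0.05 and none was lower. Between the exosome groups 3 of the 16 were higher in Exo than in pLV-Exo-Wnt5a at that p and none was lower. Of all genes 3.99% were higher and 3.42% lower in Exo. The list medians against Con were 0.14 in Exo and 0.02 in pLV-Exo-Wnt5a. Dnaja1, a cochaperone of Hsp70, was at 65.9, 94.1 and 102 CPM in Con and 107 to 131 CPM in the exosome libraries (log2FC 0.40, Q = 0.18, edgeR, and a log2FC of 0.23 without Con replicate 1). Of 31 immediate early genes, 7 were higher and 2 lower (4 higher without pLV-Exo-Wnt5a replicate 1, and 1 lower when Con replicate 1, Exo replicate 1 or pLV-Exo-Wnt5a replicate 3 was left out), with Egr1 at 41.1, 32.9 and 33.3 CPM in Con and 42.5 to 62.8 CPM in the exosome libraries (log2FC 0.53, Q = 0.16, edgeR) and Nr4a2 at 8.10 to 10.4 CPM in Con and 12.7 to 16.3 CPM in the exosome libraries (log2FC 0.55, Q = 0.16, edgeR). Between the exosome groups 6 of the 31 were higher in pLV-Exo-Wnt5a than in Exo and none was lower, against 3.42% and 3.99% of all genes. The list medians against Con were 0.08 in Exo and 0.27 in pLV-Exo-Wnt5a. Cholesterol synthesis genes had 4 higher and 2 lower of 30, with a median log2FC of -0.01. The number of lower ones was 4 without Con replicate 3 and 1 when Con replicate 1, Con replicate 2, Exo replicate 1, Exo replicate 2, pLV-Exo-Wnt5a replicate 1 or pLV-Exo-Wnt5a replicate 3 was left out. Of 33 genes of vesicle formation and uptake, 4 were higher and 4 lower, with 9 higher without Con replicate 3, 8 when pLV-Exo-Wnt5a replicate 2 was left out and 2 when Exo replicate 1 was. The 326 zinc finger genes of the Zfp kind had smaller shares than all genes, with 14 higher (4.29%) and 20 lower (6.13%). Without Con replicate 3 these were 32 and 31, when 13.9% and 12.4% of all genes were higher and lower, and the higher ones numbered 5 without Con replicate 1, 7 when Exo replicate 1 was left out, 8 when Con replicate 2 was and 9 when pLV-Exo-Wnt5a replicate 3 was. Of 33 S phase and mitosis genes, 1 was higher and 2 were lower, all 3 with overlapping groups. With a library left out at most 4 were higher (without pLV-Exo-Wnt5a replicate 2) and at most 4 lower (without pLV-Exo-Wnt5a replicate 3), and the proliferation marker Mki67 was at 0.771 to 1.25 CPM in Con and 0.202 to 1.09 CPM in the exosome libraries (log2FC -0.51, Q = 0.54, edgeR). Of 26 astrocyte genes, Gfap and Clu included, 3 were higher and 3 lower, of which 1 and 3 had the same sign in both exosome groups, with none higher without Con replicate 2 and 6 lower without Con replicate 3. Between the exosome groups 10 of the 26 differed at an unadjusted p under 0.05, 3 higher and 7 lower in pLV-Exo-Wnt5a. Of all genes 3.42% were higher and 3.99% lower in that contrast. Of 22 oligodendrocyte genes 1 was higher and 3 were lower, with 7 lower when Con replicate 3 or pLV-Exo-Wnt5a replicate 2 was left out, 5 when pLV-Exo-Wnt5a replicate 3 was and 1 when Con replicate 1 was. Of 22 NF-κB targets, 2 were higher and 1 was lower, with 1 to 4 higher and 0 to 2 lower when a library was left out (4 higher without Con replicate 3 and 2 lower without pLV-Exo-Wnt5a replicate 3), and the NF-κB subunit Rela (log2FC -0.15, -0.07 without Con replicate 1 and -0.22 without Con replicate 3, Q = 0.30 with all libraries, edgeR) and its inhibitor Nfkbia (log2FC -0.04, and 0.07 without Con replicate 1, Q = 0.89, edgeR) did not pass. Between the exosome groups 11 of the 22 NF-κB targets were higher in pLV-Exo-Wnt5a than in Exo at an unadjusted p under 0.05. None was lower, against 3.42% higher and 3.99% lower of all genes. The list medians against Con were -0.16 in Exo and 0.24 in pLV-Exo-Wnt5a. The neuronal markers Rbfox3 (log2FC 0.04, Q = 0.84) and Map2 (log2FC 0.21, and -0.02 without Con replicate 1, Q = 0.53, edgeR) had overlapping groups.

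**Figure D4:**
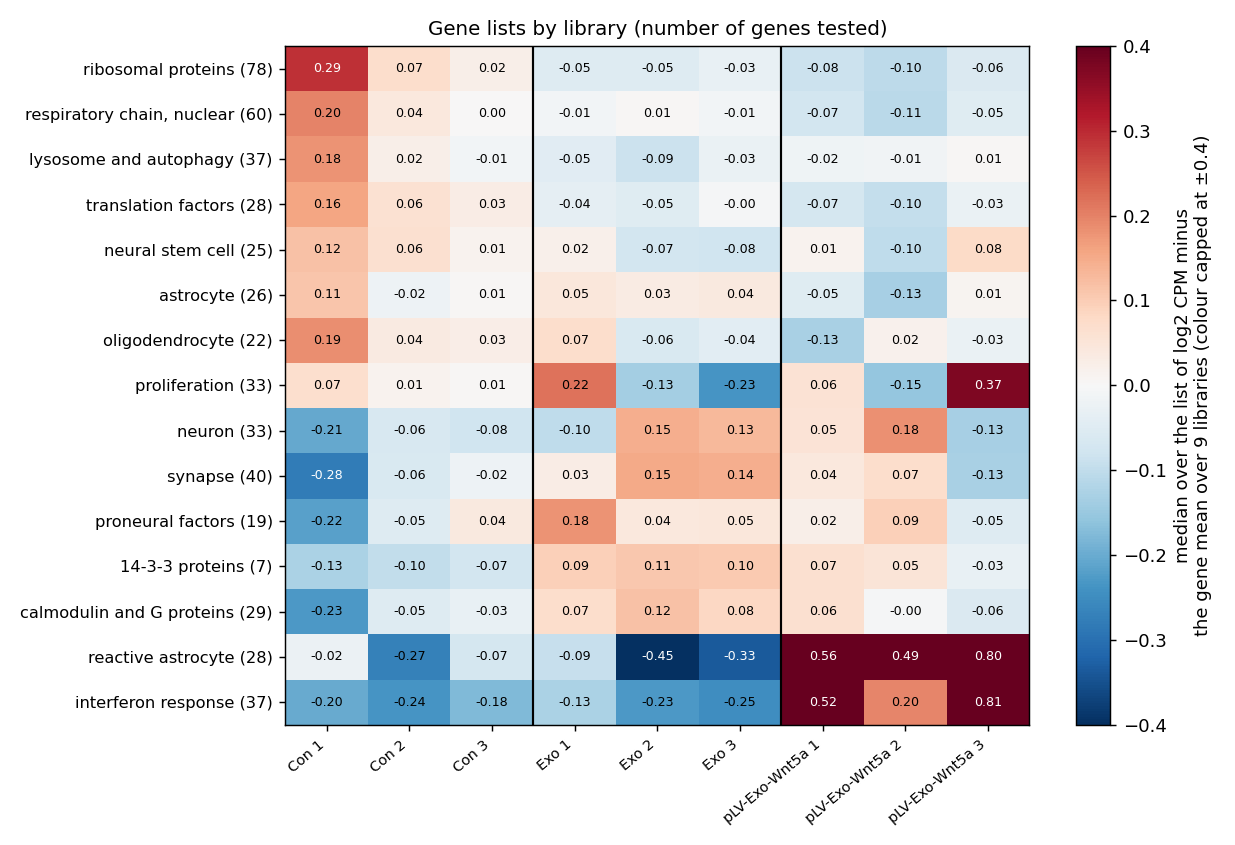
Median over each gene list (rows, with the number of genes tested) of log2 CPM minus the gene's mean over the 9 libraries, by library (columns, groups divided by black lines), with red above and blue below that mean. Ribosomal proteins are at 0.29, 0.07 and 0.02 in Con and between -0.10 and -0.03 in the exosome libraries, whereas the reactive astrocyte and interferon rows are high in the pLV-Exo-Wnt5a libraries.

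A pooled change could also come from one exosome group, and in several lists members differed between the exosome groups. Of 37 interferon-inducible genes, 12 (32.4%, against 8.68% of all genes) were higher in the pooled contrast at an unadjusted p under 0.05. The count was 6 when Exo replicate 1 or pLV-Exo-Wnt5a replicate 3 was left out and 5 with the 6 exosome libraries as 1 group. Between the exosome groups 24 were higher in pLV-Exo-Wnt5a than in Exo at an unadjusted p under 0.05 against none lower. Of all genes 3.42% were higher and 3.99% lower in that contrast. The list medians against Con were -0.05 in Exo and 0.73 in pLV-Exo-Wnt5a. Of 28 reactive astrocyte genes 17 were higher in pLV-Exo-Wnt5a than in Exo and none was lower, against 3.42% and 3.99% of all genes. The list medians against Con were -0.18 in Exo and 0.87 in pLV-Exo-Wnt5a. Gfap, the astrocyte filament, was at 3055, 2262 and 2303 CPM in Con, 2223, 2205 and 2278 CPM in Exo, and 3970, 4082 and 4029 CPM in pLV-Exo-Wnt5a. Its pooled log2FC of 0.24 (Q = 0.23, edgeR) was 0.39 without Con replicate 1 and 0.15 without either Con replicate 2 or Con replicate 3, where its call was lost, and it averaged -0.18 in Exo and 0.67 in pLV-Exo-Wnt5a. Of 18 microglia and macrophage genes tested, 4 were lower (22.2%, against 8.24% of all genes) and 2 higher (11.1%, against 8.68%) in the pooled contrast at an unadjusted p under 0.05, each with the same sign in both exosome groups. With the 6 exosome libraries as 1 group these were 2 and 1, and 1 was higher when Con replicate 3, Exo replicate 1, Exo replicate 2, pLV-Exo-Wnt5a replicate 1 or pLV-Exo-Wnt5a replicate 2 was left out. Between the exosome groups, 9 of the 18 were higher in pLV-Exo-Wnt5a than in Exo and none was lower, against 3.42% and 3.99% of all genes. The summed level of the 18 genes was 90.4 to 92.7 CPM in Con, 71.3 to 77.5 CPM in Exo and 91.3 to 99.8 CPM in pLV-Exo-Wnt5a. The complement gene C1qb illustrates the same split on the lower side, with 3.93 to 4.83 CPM in Con, 1.63 to 2.20 CPM in Exo and 3.20 to 4.08 CPM in pLV-Exo-Wnt5a.

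Among the 393 genes (2.54% of those tested) that were past the unadjusted p and size limits with a shared direction, 71 also differed between the exosome groups at an unadjusted p under 0.05 (against 3.42% higher and 3.99% lower of all genes in pLV-Exo-Wnt5a relative to Exo), and 1 did so at Q under 0.05 (against 0.259% higher and 0.0388% lower of all genes, edgeR). For the remaining 322 it did not pass that threshold, which does not show that the responses were equal. The 95% interval of the difference reached a median of 0.70 (log2) to either side over the 393 genes. The Exo group had the larger fitted change in 202 of the 290 higher and in 53 of the 103 lower genes. Of the 130 genes whose 6 exosome libraries also lay entirely beyond the Con libraries (0.556% of genes tested above and 0.285% below), 10 differed between the exosome groups at an unadjusted p under 0.05.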

How the data were processed

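Gene expression of NSCs was measured by RNA-seq in 9 libraries, 3 in each of Con, Exo and pLV-Exo-Wnt5a. The table that the authors deposited holds raw counts per gene, as whole numbers. The paper's methods name paired-end NovaSeq sequencing, removal of low-quality reads and HISAT2, whereas the submitters' processing notes name Bowtie2, RSEM 1.3.1 and DESeq2 1.4.5; the genome build is not given in the sources used here. Genes carry mouse symbols and NCBI numbers although the cells are rat, and 13128 (84.9%) of the 15458 tested symbols matched the rat annotation (GRCr8), from which gene spans and promoter sequences were taken. No strand setting is stated, so reads of overlapping and antisense genes, and of near-identical family members, cannot be told apart. Each column carried the name of its library.

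From the deposited counts, genes were filtered by filterByExpr on the 3 groups, scaled with TMM factors and fitted over all 9 libraries with edgeR 4.0.16 (R 4.3.3, quasi-likelihood F test), with the contrast of the mean of both exosome groups minus Con, and with each exosome group minus Con and pLV-Exo-Wnt5a minus Exo from the same fit. Q is the Benjamini-Hochberg adjusted p over all genes tested. The study's thresholds were used (Q below 0.05 and more than 2-fold higher or under 0.5-fold, and as a looser rule p below 0.05 unadjusted with log2FC beyond 0.58 in size), with DESeq2 1.42.0 as an alternative. Levels are CPM scaled by TMM, and log2 CPM used a prior count of 2. Gene lists are described by counts and medians only. Exo and pLV-Exo-Wnt5a share the Con libraries, so no overlap between their comparisons is given as a result.

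Genes were named if they had the same sign in both exosome groups and no overlap between exosome and Con libraries and were among the 15 in each direction with the smallest p (Q below 0.05 first, then the looser rule) or the 8 in each direction with the largest log2FC at p below 0.05 and a mean of at least 1 CPM. Also named were up to 4 members of each list by p, marker genes of the highest level, and genes the study measured by other means; other members of a counted group were named after their values were seen. Some genes that this rule named are not reported here. The members and lists were chosen with earlier results of these data known. The procedure was tested on simulated data. Alternatives were RLE and upper quartile scaling, no filter, at least 10 counts in every library, 6 exosome libraries as 1 group, the replicate number as a block, each library left out, and DESeq2. No libraries of a group were alike within sampling noise (chi-square per degree of freedom 7.33 to 48.4), and each was counted once.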

Additional observations from a re-analysis of the deposited data

Results flagged for a closer look

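Some genes of the pooled comparison differed between the exosome groups by the test of that difference (edgeR quasi-likelihood test with Benjamini-Hochberg adjustment, n = 3 libraries each), so their pooled values do not stand for both groups. The difference in log2FC, pLV-Exo-Wnt5a minus Exo, was 2.75 for the protease inhibitor Serpina3n (Q = 2.51e-05), 1.60 for the complement gene C4b (Q = 2.51e-05), 0.93 for the class I antigen H2-D1 (Q = 0.000289), 1.42 for the interferon-inducible Oasl2 (Q = 0.0055), 0.94 for Ifi27 (Q = 0.023), 0.73 for the chaperone clusterin, Clu (Q = 0.032), and 0.85 for Gfap (Q = 0.0032). In each of these the log2FC against Con was at most 0.00 in Exo and at least 0.67 in pLV-Exo-Wnt5a. The olfactory receptor gene Or10ad1 went the other way, with a difference of -1.44 (Q = 0.027), at 2.55 to 3.94 CPM in Exo and 1.01 to 1.28 CPM in pLV-Exo-Wnt5a. Groups of 3 libraries were not examined for single outlying values.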

How the results depend on the processing

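Genes at Q under 0.05 numbered 1 by edgeR, 714 with no filter on low counts, 323 by DESeq2, 0 with the 6 exosome libraries as 1 group and 0 with the replicate block, and ranged from 0 to 400 when single libraries were left out, with the highest number without Con replicate 3. Those also past the fold limits numbered 0, with 22 without the filter, 4 by DESeq2 and 0 to 49 with a library left out. Genes past the unadjusted p and size limits with a shared direction numbered 393 and then 813 without the filter, 354 with the replicate block and 246 (without Con replicate 1) to 966 (without Con replicate 3) with a library left out. The share of these that were higher was 73.8%, and 48.2% without the filter, 62.6% without Con replicate 1, 61.9% without Exo replicate 1 and 86.3% without Con replicate 3. Non-overlapping genes ranged from 582 to 1610 above and from 781 to 1796 below Con with a library left out, where fewer libraries must be separated. Same-numbered libraries did not deviate together (correlations from -0.201 to 0.0634), so the numbers were not taken as pairs. The causes of these differences were not tested. RLE and upper quartile scaling moved none of these numbers by over 1.5 times. Of 216 named genes, 3 changed sign in some setting, none of them past an unadjusted p under 0.05 as reported: Map2 (-0.02 without Con replicate 1), Nfkbia (0.07 without Con replicate 1, 0.01 when pLV-Exo-Wnt5a replicate 2 was left out) and Rbfox3 (-0.01 without pLV-Exo-Wnt5a replicate 2). The median log2FC of 15 of 54 gene lists, each at most 0.13 in size, changed sign as well. Depth set the limit for genes near 3 counts, at 0.0742 to 0.0916 CPM.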
